A study of Mus musculus with 6 samples.

Results

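The genes described here encode the proteasome, its activators and its assembly chaperones. They were chosen by symbol, as every gene whose name in the platform annotation begins with Psma, Psmb, Psmc, Psmd, Psme or Psmg. This gave 48 of the 18193 genes with a probe set of a single symbol, each represented by its probe set with the highest mean signal. A further probe set is annotated to both Psme2b and Psme2 and so stands for no single gene. Ba/F3 is an interleukin-3-dependent mouse haematopoietic line of BALB/c background, labelled as murine leukemia cells and grown here with medium conditioned by WEHI-3 cells. All 6 samples carried the PAX5-KIDINS220 fusion (P-K220 in the labels) in the Retro-X Tet-on inducible system. The 3 Dox(+) samples received 500 ng/mL doxycycline for 24 h to switch the fusion on, and the 3 Dox(-) samples received none, to ask which pathways the fusion affects. No sample without the transgene was analysed here, so an effect of doxycycline itself cannot be told apart from one of the fusion, and the labels do not say whether the cells were 1 clone.

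The array codes in the sample titles begin with EA20 on 4 arrays (2 Dox(+), 2 Dox(-)) and with EA15 on 2 arrays (1 of each). The EA20 codes are EA2019_01 and EA2020_01 for Dox(+), and EA2021_01 and EA2022_01 for Dox(-). Within EA20 the order of the codes thus goes with treatment and cannot be told apart from it. The labels do not say what these codes mark, so the sets are called EA20 and EA15 here, and doxycycline was compared within them. Nor do the labels say whether samples of a group came from separate cultures, so each p-value reflects only how these arrays vary, and that variation may be technical. Each array had a trimmed mean signal of 500.003, and log2 signals over all genes correlated at 0.977 to 0.982 within a set and at 0.954 to 0.960 between sets. The haematopoietic markers Ptprc, Csf2rb, Csf2rb2 and Cd53 lay at the 97.9th percentile of all genes or above, Spi1 at the 80.2nd and Il3ra at the 67.3rd. Of the B-lineage markers Cd79b lay at the 66.1st percentile, Cd22 at the 45.7th, Ms4a1 at the 35.0th, Cd79a at the 22.6th and Ebf1 at the 18.3rd. Signals here come from bulk RNA, in which fewer cells of a type and less RNA per cell cannot be told apart.

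The proteasome degrades proteins that carry ubiquitin chains. Its 20S core is a barrel of outer alpha rings and inner beta rings, in which Psmb5, Psmb6 and Psmb7 encode the active-site subunits. Interferon-inducible Psmb8, Psmb9 and Psmb10 replace these in the immunoproteasome, which is abundant in blood cells and favours peptides that fit MHC class I. The 19S particle caps the barrel, with ATPases (Psmc genes) that unfold substrates and non-ATPases (Psmd genes) that bind and remove ubiquitin. PA28 (Psme1, Psme2, Psme3) and PA200 (Psme4) are alternative activators, and the Psmg genes encode chaperones that assemble the core. Constitutive subunit genes are activated together by the transcription factor NRF1, encoded by Nfe2l1, when proteasome activity falls short.

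Apart from Psmb11, the mean signal of each gene over 6 arrays was 654 or more, at or above the 67.5th percentile of all genes. The 14 genes of the constitutive core had a median mean signal of 7971, and the 17 Psmc and Psmd subunit genes of the 19S particle one of 4862, on the linear scale of the arrays. Among the immunoproteasome genes the mean signal was 10950 for Psmb8, 7477 for Psmb9 and 2186 for Psmb10. These signals belong to separate probe sets and do not rank the genes against each other. Psmb11, the thymus-restricted beta subunit, had signals of 2.29 to 9.97 on the 6 arrays, and Psma8, the alpha subunit known from testis, signals of 1143 to 1718.

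With doxycycline, given to switch the fusion on, no proteasome gene passed the test in either direction. The fit was limma on log2(signal + 16) with the array set as a block, and 0 of 48 genes had an adjusted p under 0.05 (Benjamini-Hochberg over 18193 genes), against 0.198% of all genes. With so few calls in all, this count says nothing particular of these 48 genes. The lowest adjusted p among them was 0.226, for Psme1. At an unadjusted p under 0.05 there were 4, or 8.33% of the members against 11.1% of all genes. Of these Psme1 and Psma6 were higher, a direction found in 5.82% of all genes, and Psmc3ip and Psma8 lower, found in 5.26%. The EA20 arrays alone also gave 0 of 48 (0.412% of all genes), and 8 at an unadjusted limma p under 0.05 (13% of all genes), 2 of them higher (6.67%) and 6 lower (6.34%). Without the block there were 0 of 48 at either threshold (0% and 2.58% of all genes). The 3 arrays of Dox(+) lay wholly apart from the 3 of Dox(-) in 1 gene, Psmd5, against 6.90% of all genes. In the fit with the block the 95% interval of the fold change lay, for 47 of 48 genes, within 1.5-fold in both directions, and for all 48 within 2-fold. The exception to the narrower limit was the dim Psmb11, at 1.06-fold (0.688 to 1.63). In the EA20 arrays alone 45 lay within 1.5-fold, with Psma6 (up to 1.57) and Psmc3ip (down to 0.582) also outside, and without the block 15 did. Log2 differences ran from -0.32 to 0.29, with 22 positive and 26 negative, and a median of -0.019 against 0.0037 over all genes.

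**Figure D1:**
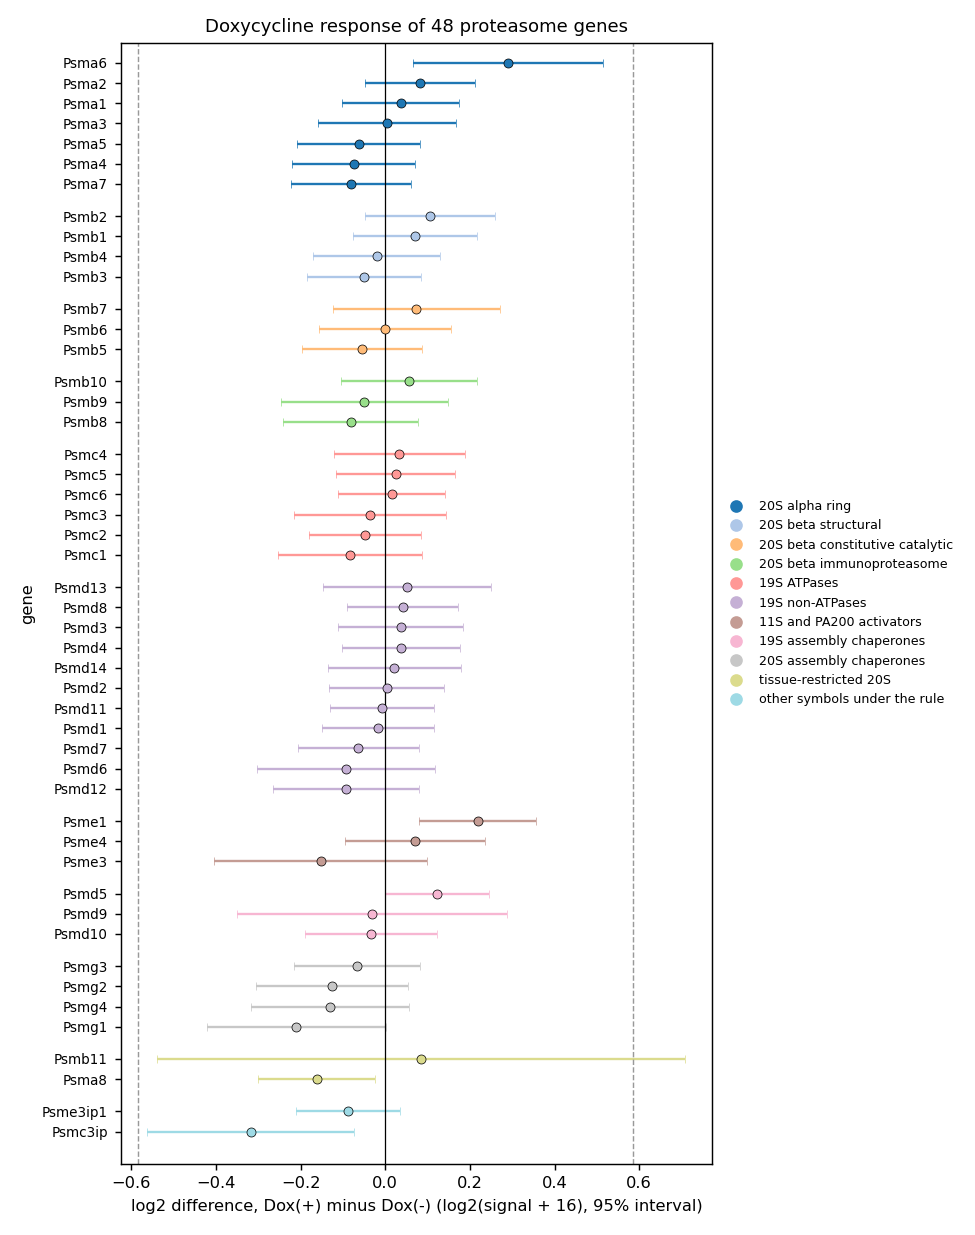
Log2 difference of each of the 48 genes, Dox(+) minus Dox(-), on the log2(signal + 16) scale, with the array set as a block (x axis), by gene and role (y axis and colour). Points are limma estimates from 3 arrays a group, bars are 95% intervals, and dashed lines mark 1.5-fold; the bars of 44 genes cross 0, and only that of Psmb11 crosses a dashed line.

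The active-site subunits of the constitutive core did not pass the test, and their groups overlapped. Psmb5, which encodes the chymotrypsin-like beta5 subunit, had signals of 6127 and 6358 on the EA20 and 9006 on the EA15 Dox(+) arrays, against 6880 and 6230 on the EA20 and 9173 on the EA15 Dox(-) arrays. The arrays differed far more by set than by treatment. Its fold change was 0.963 (95% interval 0.873 to 1.06, limma adjusted p 0.816). Psmb6, the caspase-like beta1 subunit, had 2882, 2890 and 5658 on the same Dox(+) arrays, against 3125, 3031 and 4977 on the Dox(-) arrays. Both EA20 arrays with doxycycline were below both without it, while the EA15 array with doxycycline was above its partner. The fold change was 1.0 (0.898 to 1.11, limma adjusted p 0.999). Psmb7, the trypsin-like beta2 subunit, had 3176, 3166 and 9030 with doxycycline, against 3345, 2622 and 8876 without it, a fold change of 1.05 (0.919 to 1.21, limma adjusted p 0.820). The EA15 arrays of both groups stood far above the EA20 arrays.

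The 3 immunoproteasome genes did not pass either. Psmb8, which encodes beta5i, had signals of 11470 and 12547 on the EA20 and 7961 on the EA15 Dox(+) arrays, against 13137, 11882 and 8704 on the same Dox(-) arrays. Here the EA15 arrays were the low ones, and the treatments overlapped. The fold change was 0.945 (95% interval 0.846 to 1.06, limma adjusted p 0.738). Psmb9, which encodes beta1i, had 8692, 8604 and 4991 with doxycycline, against 8684, 7740 and 6153 without it. Its log2 ratio was 0.08 in the EA20 and -0.30 in the EA15 arrays, and the fold change was 0.967 (0.843 to 1.11, limma adjusted p 0.891). Psmb10, which encodes beta2i, had 1794, 1873 and 3029 with doxycycline, against 1929, 1651 and 2841 without it, a fold change of 1.04 (0.930 to 1.16, limma adjusted p 0.837). Unlike the other immunoproteasome genes, its EA15 arrays were the high ones.

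Whether immunoproteasome subunits changed relative to the constitutive subunits they replace was compared as a log2 ratio on each array. With doxycycline the log2 ratio of Psmb8 to Psmb5 changed by -0.027, that of Psmb9 to Psmb6 by -0.049 and that of Psmb10 to Psmb7 by -0.018. An exact permutation test of the treatment labels within array sets (two-sided, 12 arrangements, 3 ratios, adjusted p of 1.0 each) gave p of 0.667, 1.0 and 0.833. The smallest p that this design allows is 0.167, so it could not have reached 0.05.

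**Figure D2:**
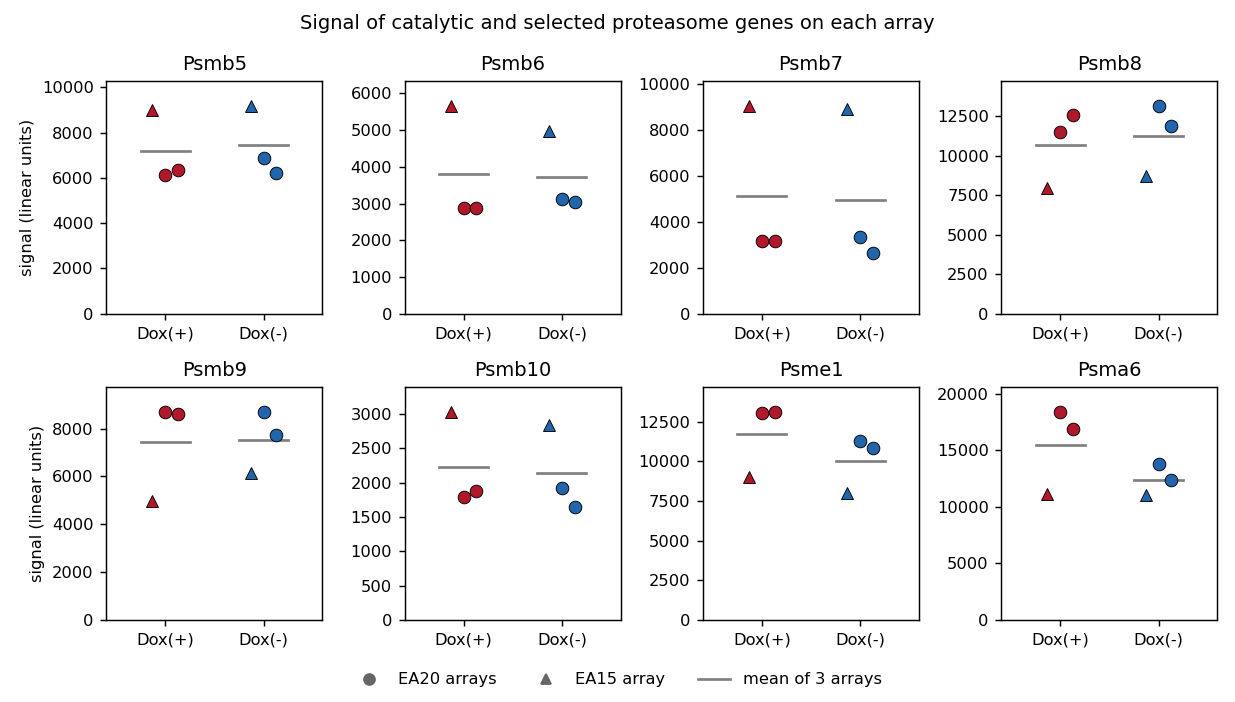
Linear signal (y axes, from 0) of the 6 active-site subunit genes, Psme1 and Psma6 on each array, for Dox(+) (red) and Dox(-) (blue). Circles are EA20 arrays, triangles EA15 arrays and grey lines the mean of 3 arrays; in Psmb7 the EA15 arrays are at 9030 and 8876 and all EA20 arrays at 3345 or below, in both treatments.

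The median log2 difference of each role group is set against that of all genes, 0.0037. The median was 0.0023 for the 14 genes of the constitutive core (8 positive, 6 negative), and -0.049 for the 3 immunoproteasome genes (1 positive, 2 negative). For the 20 genes of the 19S particle and the activators it was 0.0096 (11 positive, 9 negative). The 7 chaperone genes had a median of -0.067, with 6 of 7 negative, and 0 of them passed. That median was -0.17 without the second EA20 Dox(-) array and -0.18 with the mean of all probe sets. In the EA20 arrays alone the medians of these 4 groups were -0.040, 0.038, -0.035 and -0.11, in the same order. In the single pair of EA15 arrays they were 0.024, -0.13, 0.074 and 0.025. The sign of each group's median was thus opposite in the 2 sets. So was that of the median over all genes, at -0.00165 in the EA20 arrays and 0.015 in the EA15 pair. The interaction of doxycycline and array set passed in 0 of 48 genes (0% of all genes) and had an unadjusted limma p under 0.05 in 4 (6.72% of all genes).

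The largest positive difference of the core was that of Psma6, the alpha subunit alpha1. Its signals were 18400 and 16870 on the EA20 and 11160 on the EA15 Dox(+) arrays, against 13820, 12365 and 11094 on the same Dox(-) arrays. The difference stood in the EA20 arrays, at 0.43 on the log2 scale, and was 0.0085 in the EA15 pair. Over both sets the fold change was 1.22 (95% interval 1.05 to 1.43, limma adjusted p 0.312). Neither this fit nor that of the EA20 arrays alone called it (limma adjusted p 0.126 in the second), and its interaction with the array set had a limma adjusted p of 0.717. The next brightest probe set of Psma6 differed by 0.21 (SE 0.09). Among the other outer-ring genes, Psma2 was at 0.08 (SE 0.06) and Psma7 at -0.08 (SE 0.06), and in the structural beta genes Psmb2 was at 0.11 (SE 0.07), Psmb1 at 0.07 (SE 0.06) and Psmb3 at -0.05 (SE 0.06).

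The 17 Psmc and Psmd subunit genes of the 19S particle spanned a narrow range. Of the 6 ATPase genes Psmc1 was lowest, at -0.08 (SE 0.07), and Psmc4 highest, at 0.03 (SE 0.07), on the log2 scale. Of the 11 non-ATPase genes, Psmd12, a scaffold subunit of the lid, was lowest at -0.09 (SE 0.08) and Psmd13, another lid subunit, highest at 0.05 (SE 0.09). In none of these 17 did the 95% interval of the doxycycline difference exclude 0 in the fit with the block. In the EA20 arrays alone it did so for Psmd12, at -0.21 (-0.35 to -0.062, limma adjusted p 0.221). The same held for Psmc1, at -0.18 (-0.35 to -0.011, limma adjusted p 0.354). In the EA15 pair these 2 genes were positive, at 0.13 and 0.11. Psmd5, which encodes a chaperone of 19S assembly, had 3259, 3256 and 3630 with doxycycline, against 3050, 3058 and 3204 without it. These were small differences, but all Dox(+) arrays were above all Dox(-) arrays. The fold change was 1.09 (95% interval 0.999 to 1.18, limma adjusted p 0.456).

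Psme1, which encodes the activator subunit PA28alpha, had the lowest p of the 48 but did not pass. It had signals of 13067 and 13097 on the EA20 and 9007 on the EA15 Dox(+) arrays, against 11303, 10814 and 8004 on the same Dox(-) arrays. Within each array set the Dox(+) arrays were the higher, and across the sets the groups overlapped. It averaged 11724 ± 2353 with doxycycline and 10040 ± 1780 without it, both sets together (SD, n = 3 arrays). The fold change was 1.16 (95% interval 1.06 to 1.28, limma adjusted p 0.226). PA28alpha forms a ring with PA28beta, the product of Psme2. The probe set annotated to Psme2b and Psme2 together had 3646 and 3810 on the EA20 and 4192 on the EA15 Dox(+) arrays, against 3126, 3127 and 3755 on the Dox(-) arrays. It was higher with doxycycline within each set, by 1.17-fold (1.06 to 1.28, limma adjusted p 0.294 over 45037 probe sets). It did not pass either. Psme3, which encodes the nuclear activator PA28gamma, was at -0.15 (SE 0.11) on the log2 scale, and Psme4 at 0.07 (SE 0.07).

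All 4 Psmg chaperone genes had negative differences, as did 8969 of 18193 genes in all, and 0 of the 4 passed. In the EA20 arrays alone 4 of 4 were negative, and in the EA15 pair 1 of 4. Psmg1, which pairs with Psmg2 to build the alpha ring, had 1794 and 1522 on the EA20 and 3624 on the EA15 Dox(+) arrays, against 2190, 1948 and 3604 on the Dox(-) arrays. The lower values stood in the EA20 arrays, and the EA15 pair was nearly level. Its fold change was 0.865 (95% interval 0.747 to 1.0, limma adjusted p 0.456). Psmg2 was at -0.13 (SE 0.08), Psmg4 at -0.13 (SE 0.08) and Psmg3 at -0.07 (SE 0.07) on the log2 scale. Among the genes that carry the symbol without being subunits, Psmc3ip, which encodes the meiotic recombination factor HOP2, had 287, 287 and 1253 with doxycycline, against 399, 395 and 1305 without it. It had the most negative difference of the 48, at -0.32 (SE 0.11, limma adjusted p 0.310). Psme3ip1, a binding partner of PA28gamma, was at -0.09 (SE 0.05). The alpha subunit gene Psma8 was at -0.16 (SE 0.06, limma adjusted p 0.360).

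The large differences among these genes ran between the array sets, in both treatments. Relative to EA15, 36 of 48 genes were lower and 9 higher on the EA20 arrays (limma, adjusted p under 0.05, the array-set term of the same fit), or 75.0% and 18.8%. Over all genes 16.3% were lower and 17.3% higher, and among genes above the 40th percentile of mean signal, where 47 of the 48 lie, 28.3% and 30.7%. The median difference of the 48 was -0.55 on the log2 scale, against 0.038 over all genes. In the Dox(+) arrays and in the Dox(-) arrays taken separately, the medians were -0.58 and -0.51, and the 48 genes all had the same sign in both. The 4 EA20 arrays lay wholly below the 2 EA15 arrays in 36 genes (21.5% of all genes) and wholly above them in 9 (24.6%). Without the EA15 Dox(+) array, 32 were called lower and 7 higher. What differed between the sets besides the code is not given in the labels, and the actin 3′ to 5′ signal ratio was 1.18 to 1.24 on the EA20 and 1.17 to 1.18 on the EA15 arrays. The Gapdh ratio was 0.637 to 0.680 on the EA20 and 0.684 to 0.688 on the EA15 arrays, without overlap. The haematopoietic markers moved with the sets too: 5 of 6 lay wholly higher on EA20 and Cd53 wholly lower, and their summed signal was 58757 to 67302 on the EA20 and 34065 to 40299 on the EA15 arrays. The B-lineage list, with 5 of 6 markers measured, summed to 690 to 914 on the EA20 and 603 to 726 on the EA15 arrays. The sums of 3 other lists lay wholly higher on EA20: T lineage at 279 to 414 against 70.4 to 96.3, granulocyte and monocyte at 545 to 673 against 393 to 457, and erythroid at 490 to 590 against 294 to 381. Single genes carried much of this. Wholly higher were 1 of 3 measured T-lineage genes (Cd3g), 2 of 4 granulocyte and monocyte genes (Elane and Csf1r) and 1 of 2 erythroid genes (Epor). Lyz2, of the granulocyte and monocyte list, lay wholly lower. The fibroblast sums overlapped, at 94.8 to 146 on the EA20 and 96.4 to 106 on the EA15 arrays. The part of these in the result was not tested.

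**Figure D3:**
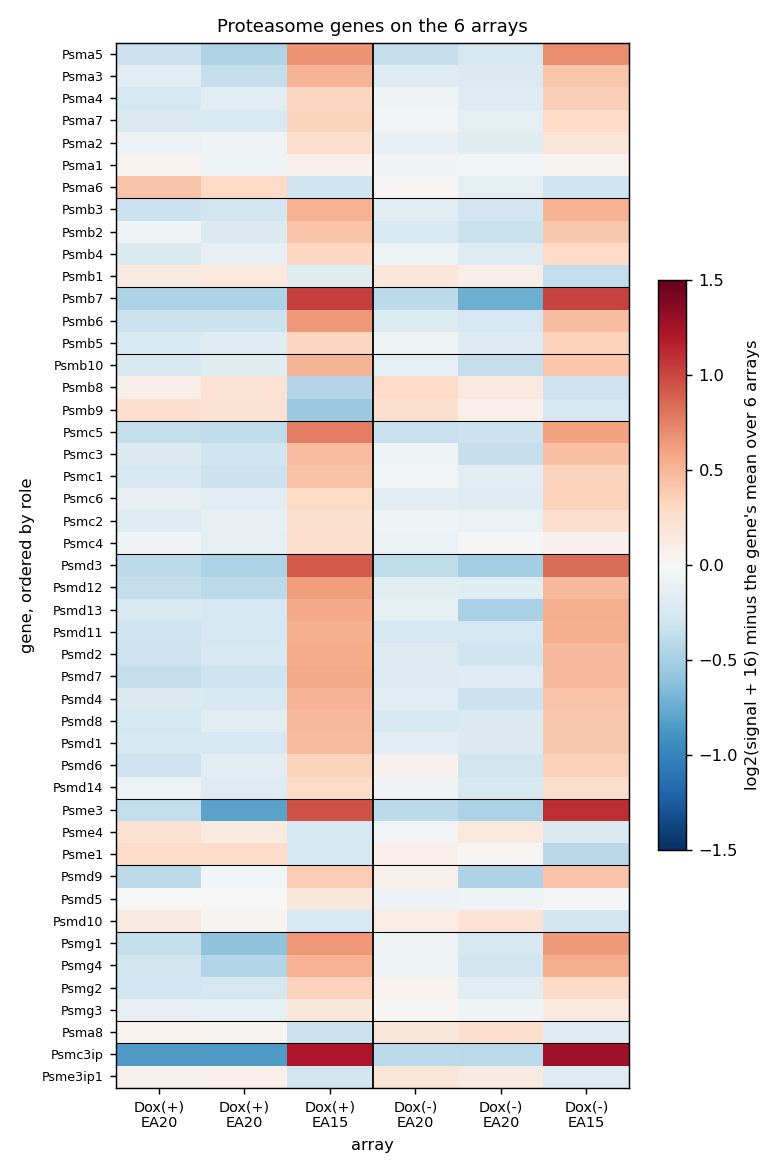
Log2(signal + 16) minus the gene's mean over 6 arrays (colour, red above and blue below the mean) for 47 proteasome genes (rows, by role; the dim Psmb11 is left out) on the 6 arrays (columns, Dox(+) left of the line and Dox(-) right of it). The EA15 column of each treatment is red for most rows, and blue for Psmb8, Psmb9 and Psme1 among others.

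All 17 Psmc and Psmd subunit genes of the 19S particle were lower on EA20 arrays by their brightest probe sets, with a median of -0.69. A dimmer probe set of Psmc6 overlapped between the sets. It had 1421, 1174, 1280 and 1360 on the EA20 arrays, against 1247 and 1264 on the EA15 arrays. Sem1, a 19S subunit gene outside the symbol rule, was at 0.03 on the log2 scale and did not pass (limma adjusted p 0.771), but was called higher with the mean of all its probe sets (0.32, adjusted p 0.00575). Psmd3, a lid subunit, had signals of 1367, 1287, 1379 and 1248 on the EA20 arrays, against 3419 and 3235 on the EA15 arrays. The sets did not overlap, and the EA20 level was 0.40 of that of EA15 (95% interval 0.358 to 0.445, limma adjusted p 1.3e-06). The ATPase gene Psmc5 was at 0.488 (0.440 to 0.542, limma adjusted p 3.7e-06). In the constitutive core 11 of 14 genes were lower, with Psmb7 at 0.343 (0.297 to 0.397), Psma5 at 0.489 (0.440 to 0.544), Psmb6 at 0.563 (0.502 to 0.631) and Psmb5 at 0.704 (0.634 to 0.781). The exceptions in the core were Psma6 and Psmb1, which were higher, and Psma1, which did not pass. Psmb4 was among the lower genes by its brightest probe set only. Its other probe set (mean signal 8609) went the other way. It had 10023, 8410, 9253 and 9873 on the EA20 arrays, against 6585 and 7513 on the EA15 arrays, a difference that was not tested. Psmc4 had the highest ratio of the 17, at 0.849, and was not called after quantile normalization (adjusted p 0.105). Nor was it with any of the 3 Dox(+) arrays or the first EA20 Dox(-) array left out (adjusted p 0.0576 to 0.389). All 4 Psmg genes were lower, among them Psmg1 at 0.513 (0.439 to 0.60). Psmg3, at 0.849, was not called with any of the Dox(+) arrays or the second EA20 Dox(-) array left out (adjusted p 0.0665 to 0.245). The nuclear activator gene Psme3 was at 0.344 (0.286 to 0.414), and Psmc3ip at 0.273 (0.229 to 0.327), the lowest ratio of the 48.

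Of the immunoproteasome genes 2 of 3 were higher on EA20 arrays, as was the activator gene Psme1. The probe set annotated to Psme2b and Psme2 was instead lower on EA20 within each treatment. It had 3646 and 3810 on the EA20 against 4192 on the EA15 Dox(+) arrays, and 3126 and 3127 against 3755 on the Dox(-) arrays. Its difference between the sets was not tested. Psmb8 was 1.47-fold higher on the EA20 than on the EA15 arrays (95% interval 1.31 to 1.65, limma adjusted p 3.0e-04), Psmb9 1.52-fold (1.31 to 1.76, limma adjusted p 7.0e-04) and Psme1 1.42-fold (1.28 to 1.57, limma adjusted p 2.3e-04). Psmb10 did not go with them and was lower, at 0.619 (0.550 to 0.696, limma adjusted p 7.9e-05). The log2 ratio of Psmb8 to Psmb5 was thus higher by 1.06 on EA20 arrays, that of Psmb9 to Psmb6 by 1.43 and that of Psmb10 to Psmb7 by 0.85. In all 3 pairs the EA20 arrays lay wholly above the EA15 arrays. The other genes that were higher on EA20 arrays were Psma6, Psma8, Psmb1, Psmd10, Psme3ip1 and Psme4, by 1.27- to 1.36-fold; without the EA15 Dox(+) array the adjusted p was 0.204 for Psma6 and 0.101 for Psme4. With each array centred on the median of its log2 signals, which moves all genes by -0.18 between the sets, 5 of the 9 were still called higher (Psma8, Psmb1, Psmb8, Psmb9 and Psme1), and all 36 lower genes were still called lower. With the mean of all probe sets all 9 were still called higher and 26 of the 36 lower, not Psmc1 (adjusted p 0.614), Psmg2 (0.123) or Psmg3 (0.460) among others. Without probe sets of shared sequence Psmb1 was not called (adjusted p 0.603), nor was Psmd13 (0.379).

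**Figure D4:**
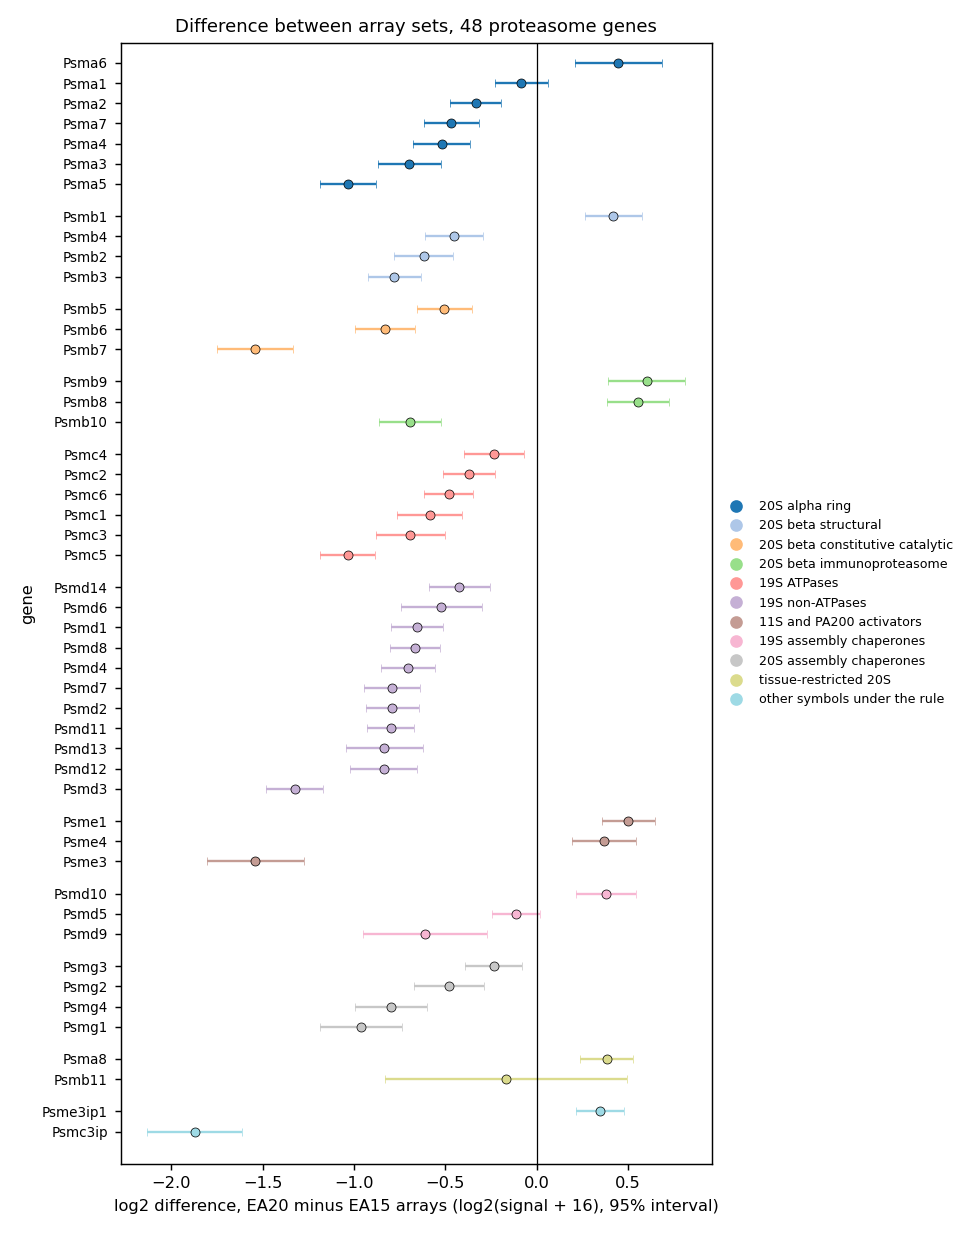
Log2 difference of each of the 48 genes, EA20 minus EA15 arrays (4 against 2), on the log2(signal + 16) scale with doxycycline in the fit (x axis), by gene and role (y axis and colour). Points are limma estimates and bars 95% intervals; all 17 Psmc and Psmd subunit genes lie left of 0, while Psmb8, Psmb9 and Psme1 lie right of it.

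Promoters of 40 of the 48 genes were matched by symbol in RefSeq (GRCm38.p6, 250 bases before to 50 after the start of the gene). 5 are shown: both genes of the 2 active-site pairs that were matched in full, and Psme1, the PA28 gene that moved with Psmb8 and Psmb9. Capitals mark matches on either strand to TGANNNNGC, the loose core of the antioxidant response element read by NRF1 and NRF2, to 2 copies of GAAA spaced by 2 bases, as in the interferon-stimulated element, or to TTCNNNGAA, the site of STAT factors.
Psmb5, chr14:54617946-54618245, minus strand: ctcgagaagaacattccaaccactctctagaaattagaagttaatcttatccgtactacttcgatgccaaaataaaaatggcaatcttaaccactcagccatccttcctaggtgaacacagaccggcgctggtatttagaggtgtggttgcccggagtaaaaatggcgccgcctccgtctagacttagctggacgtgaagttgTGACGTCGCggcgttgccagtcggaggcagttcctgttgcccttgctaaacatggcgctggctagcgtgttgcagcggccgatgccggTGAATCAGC
Psmb6, chr11:70525107-70525406, plus strand: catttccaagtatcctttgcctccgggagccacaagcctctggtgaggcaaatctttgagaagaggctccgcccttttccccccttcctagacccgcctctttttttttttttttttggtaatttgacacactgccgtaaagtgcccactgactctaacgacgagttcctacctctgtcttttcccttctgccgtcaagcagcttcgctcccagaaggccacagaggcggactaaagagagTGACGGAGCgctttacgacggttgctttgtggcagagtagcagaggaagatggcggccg
Psmb8, chr17:34197945-34198244, plus strand: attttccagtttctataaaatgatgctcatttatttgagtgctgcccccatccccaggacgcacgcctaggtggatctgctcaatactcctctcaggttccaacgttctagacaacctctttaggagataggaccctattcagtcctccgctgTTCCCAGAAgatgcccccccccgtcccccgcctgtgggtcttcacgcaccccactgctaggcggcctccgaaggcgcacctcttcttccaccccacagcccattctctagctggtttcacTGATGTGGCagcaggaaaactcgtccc
Psmb9, chr17:34187281-34187580, minus strand: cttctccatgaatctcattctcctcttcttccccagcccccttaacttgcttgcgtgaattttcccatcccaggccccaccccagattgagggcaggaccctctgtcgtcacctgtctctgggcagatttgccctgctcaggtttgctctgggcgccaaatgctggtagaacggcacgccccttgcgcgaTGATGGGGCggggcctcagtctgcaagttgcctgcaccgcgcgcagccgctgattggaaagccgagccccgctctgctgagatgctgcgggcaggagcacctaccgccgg
Psme1, chr14:55578244-55578543, plus strand: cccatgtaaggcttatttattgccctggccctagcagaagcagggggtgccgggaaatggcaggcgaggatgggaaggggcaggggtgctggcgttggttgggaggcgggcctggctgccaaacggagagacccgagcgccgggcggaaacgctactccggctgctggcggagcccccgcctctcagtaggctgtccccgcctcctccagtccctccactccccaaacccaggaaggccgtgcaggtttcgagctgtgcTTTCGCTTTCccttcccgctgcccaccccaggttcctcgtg

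In these letters Psmb5 and Psmb6 held the stricter form TGACNNNGC, while Psmb8 and Psmb9 held TGANNNNGC without that C. Psme1 held the spaced GAAA pair and Psmb8 held TTCNNNGAA. Over the 40 promoters, TGANNNNGC was found in 24 (60%), against 45.0% of the promoters of 27025 genes, and TGACNNNGC, a subset of it, in 6 (15%) against 14.0%. The stricter form was in 1 of the 7 matched genes that were higher on EA20 arrays (14.3%) and in 5 of the 30 that were lower (16.7%). The GAAA pair was found in 5 (12.5%) against 3.99%, and TTCNNNGAA in 3 (7.5%) against 9.55%. The GAAA pair was in 1 of the 7 matched genes higher on EA20 (14.3%) and in 4 of the 30 lower (13.3%). TTCNNNGAA was in 1 of the 7 (14.3%) and in 2 of the 30 (6.67%). Among the 7 matched genes that were higher on EA20 arrays, 5 held TGANNNNGC, as did 17 of the 30 that were lower. A CCAAT box was found in 16 of the 40 (40%), against 41.1% of all. A match shows only that these letters occur in the window.

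Genes around the proteasome that lie outside the symbol rule showed the same order of sizes. With doxycycline 0 of 34 measured genes in 4 lists passed, beside 0.198% of all genes, so this count says nothing particular of the lists (limma, 10 of 44 listed genes had no single-symbol probe set here). Among 8 proteasome-associated genes the median doxycycline difference was -0.0066, with Pomp, which matures the core, at 0.07 (SE 0.07), the 19S subunit gene Sem1 at 0.08 (SE 0.06) and the deubiquitinase gene Uchl5 at -0.05 (SE 0.06). For 8 ubiquitin and shuttle genes it was -0.063, with Uba6, an E1 enzyme, at -0.12 (SE 0.06), Ubqln2 at -0.09 (SE 0.06) and Ubqln1 at 0.07 (SE 0.06). Of 8 genes of NRF1 and NRF2 control, 7 were positive (median 0.13), as were 9224 of 18193 genes in all. Ngly1, which activates NRF1, was at 0.22 (SE 0.06), Keap1, which restrains NRF2, at -0.22 (SE 0.09) and the repressor gene Bach1 at 0.14 (SE 0.06). The list mixes activators and repressors, so a shared sign gives no direction of control.

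Tapbp, which encodes the peptide-loading protein tapasin, came closest to a call. Its signals were 4456 and 4656 on the EA20 and 2103 on the EA15 Dox(+) arrays, against 3442, 3393 and 1765 on the Dox(-) arrays. Within each set the Dox(+) arrays were the higher. The fold change was 1.28 (95% interval 1.17 to 1.41, limma adjusted p 0.073), and with the dimmest 40% of genes left out its adjusted p was 0.0291. Of the other 9 antigen-processing genes, H2-D1 was at 0.12 (SE 0.06) and Tap2, a peptide transporter subunit, at -0.17 (SE 0.10). Between the array sets, 6 of these 10 genes were higher on EA20 and 0 lower, beside 17.3% and 16.3% of all genes (30.7% and 28.3% above the 40th percentile), among them Tap1 (2.47-fold), Tap2 (2.44-fold), Tapbp (2.04-fold) and B2m (1.86-fold). In the NRF1 and NRF2 list 4 of 8 were higher and 1 lower on EA20, beside the same shares. Bach1 was 3.62-fold and Nfe2l2, which encodes NRF2, 1.75-fold higher, Ngly1 was lower at 0.833 (limma adjusted p 0.0117), and Nfe2l1 was at 0.778 and did not pass (limma adjusted p 0.058). Of the 8 proteasome-associated genes 3 were lower and 0 higher on EA20, beside the same shares, with Usp14, a deubiquitinase of the 19S particle, at 0.566, Uchl5 at 0.628 and Pomp at 0.717.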

How the data were processed

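The deposited table holds an intensity for each probe set of an Affymetrix array, on a linear scale. Per the submitters' processing notes, Affymetrix Expression Console produced these; which algorithm and version was used is not given. Means trimmed by 2% at both ends were equal on all arrays, so the values are relative to each array's total. Of 45037 probe sets that are not controls, 34945 had 1 gene symbol in the platform annotation, 932 had several and 9160 had none and were left unnamed.

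Signals were transformed to log2(signal + 16), which understates changes of dim genes, with no filter. Limma 3.58.1 in R 4.3.3 (lmFit, eBayes with trend, two-sided) was fitted over all 18193 genes with doxycycline and array set as terms, or with their interaction, and p-values were adjusted by Benjamini-Hochberg. Intervals come from the moderated fit and cover the spread between these arrays, whose number limits the precision. The fits were also run on data simulated from the fitted model with independent normal noise. This checks the code and not whether that model holds for these arrays. Members and lists were chosen with earlier results of these data known. Replicate numbers follow the order of the samples and pair nothing. Named were the active-site genes, Psme1, up to 6 further members in each direction by p, the extremes of each role and 3 genes per pathway list. Psma1, Psma5, Psmb4, Psmc5, Psmc6, Psmd3, B2m, Tap1, Nfe2l1, Nfe2l2 and Usp14 were named after their values were seen. Python 3.11.15 was used for summaries, promoters and plots.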

Additional observations from a re-analysis of the deposited data

How the results depend on the processing

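No proteasome gene passed with against without doxycycline (0 of 48) in any setting: no block, EA20 arrays alone, quantile normalization, median centring, pseudocounts of 1 and 64, the dimmest 40% of genes left out, the mean of all probe sets, no probe sets of shared sequence (endings _s_at, _x_at, _a_at; 42 genes), no trend, a robust prior, array weights, an adjusted p under 0.10, and each array left out in turn. Every probe set by itself, chosen after seeing the data, also gave 0 of 99. Of all genes 0.198% passed in the main fit, 0.412% in the EA20 arrays alone and 0% without the block. With so few calls, 0 of 48 says nothing particular of the proteasome genes. For the other settings the share of all genes is not given here. At an unadjusted limma p under 0.05 there were 0 without the block and 8 in the EA20 arrays alone, against 4 with it. The interaction with the array set gave 0 in each setting that could be fitted, and in the main fit it passed in 0% of all genes. It could not be fitted without either EA15 array. The count of genes that differed between the sets was 34 (of 42, without probe sets of those endings) to 45, and 39 to 44 with an array left out. The median doxycycline difference of the constitutive core was -0.0405 in the EA20 arrays alone and -0.0405 to 0.0466 with an array left out. That of the assembly chaperones was -0.1797 when all probe sets of a gene were averaged and -0.1656 to -0.0373 with an array left out. That of the 19S particle and activators was -0.0525 without probe sets of those endings, and -0.0349 to 0.0267 with an array left out. With an array left out, that of the immunoproteasome genes was -0.1298 to 0.038. Among pathway genes 1 passed, Tapbp, without the dimmest genes and at an adjusted p under 0.10. Ubqln1 turned to 0.3588 between the sets without probe sets of those endings (limma adjusted p 0.696). No paired analysis was possible because the labels give no replicate numbers.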

Other observations

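Probe sets of the same gene did not always point the same way. Of 13 proteasome genes with more than 1 probe set of mean signal 1000 or more, 7 had the same sign of the doxycycline difference in all of these, and within a gene they differed by at most 0.10 on the log2 scale. Of the 99 probe sets, 19 had a mean signal under 100. The dimmest of 3 probe sets of Psmc6, chosen after its values were seen, was at -0.41 (limma unadjusted p 0.045, adjusted p 0.519), while the brightest was at 0.016.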
